A study of Mus musculus with 6 samples.

Results

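Ddit4 and Akt1s1 encode proteins that restrain mTORC1, and both transcripts hold RNA G-quadruplex motifs (rG4s) whose reverse-transcription stops were counted in differentiating mouse embryonic stem cells. The members are all sites that the deposited tables assign to either gene, 12 in Ddit4 and 1 in Akt1s1, which makes 13 of 5538 sites. The genes were chosen with earlier results of these samples in view, among them the K+ stops of Ddit4 between days, while the values that led to Akt1s1 are not known here. Their values between days and between cations are therefore given as descriptions, with no p. The samples are day 0 stem cells, day 3 embryoid bodies kept in suspension and day 7 cells grown attached from day 3, with 2 samples per day. All samples come from 1 clonal line, labelled 129S1/CastEiJ x 129S1, genotype WT and treatment None, whose growth protocol names it TsixTST/+. The line was held on inactivated feeder cells with leukemia inhibitory factor (LIF), and the cells were freed of feeders and deprived of LIF for differentiation.

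mTORC1 is the kinase complex that couples growth factors, amino acids and energy to protein synthesis and cell growth. Ddit4 (also REDD1) is induced by hypoxia, glucocorticoids and endoplasmic reticulum stress and lowers mTORC1 activity through the TSC complex, which switches off the GTPase Rheb. Akt1s1 (also PRAS40) binds the raptor subunit of mTORC1 and blocks it until it is phosphorylated by AKT. An rG4 is a stack of guanine tetrads formed by runs of guanines and stabilised by K+ but not by Li+.

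The trypsinised cells of every day were exposed to DMS (dimethyl sulfate), an alkylating agent that modifies guanines outside a tetrad. Polyadenylated RNA bound to chromatin was then isolated and fragmented. A motif protected from DMS can refold in K+ during reverse transcription and stop the enzyme, and the Li+ library of the same sample gives the stops that do not depend on refolding. The stop share is the number of stops divided by the coverage at the stop bases. This coverage is summed over the 1 to 5 stop bases of a member. Shares were not adjusted for that number, which limits rankings of shares between sites. Each day 7 sample also has a table named in vitro, whose preparation is described only by that name and the series' design. In both in vitro tables all 13 sites had a higher share in K+ than in Li+, as did all 4491 and 3318 sites with 20 or more reads in both columns, so this direction is no finding about the members.

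The sites are named here by the distance in bases from the 3′ edge of the motif to the 3′ end of the RefSeq gene, Ddit4 at chr10:59949675-59951770 on the minus strand and Akt1s1 at chr7:44849224-44855421 on the plus strand (GRCm38.p6, 1-based). Of the 12 Ddit4 sites 10 lie in the 3′ UTR, in 4 separate G-rich segments, and 2 in the region that the tables annotate as 5′ UTR. Overlapping sites of a segment share bases and reads and are not independent. Sequences are shown for 7 Ddit4 motifs whose stop shares are set side by side in cells and in vitro, as deposited, 5′ to 3′ on the transcript strand, with runs of 3 or more guanines in capitals. The longer motifs of sites 433, 436 and 442 overlap site 452 and are not shown.
Ddit4 site 156, chr10:59949831-59949852: gaggagaGGGGctGGGGtGGGG
Ddit4 site 260, chr10:59949935-59949959: GGGGtGGGtgttaggatcattcGGG
Ddit4 site 270, chr10:59949945-59949964: ggaatGGGGtGGGtgttagg
Ddit4 site 452, chr10:59950127-59950147: GGGGGttGGGGGctGGGGGGG
Ddit4 site 831, chr10:59950506-59950525: GGGGtGGGGtgcGGGGaGGG
Ddit4 site 2118, chr10:59951793-59951820: GGGGGGaggtgcgagaGGGttcgaaGGG
Ddit4 site 2127, chr10:59951802-59951824: ggcaGGGGGGaggtgcgagaGGG

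The segment nearest the Ddit4 3′ end holds sites 144, 148 and 156, which are 3 readings of 1 stretch. Sites 433, 436, 442 and 452 overlap in another stretch with runs of up to 7 guanines. In the classes that the tables give, 5 of the 13 motifs are canonical with short loops (15.7% of all 5538 sites), 6 are bulged (41.7%) and 2 are two-quartet. The string GGGTGGG, searched on the transcript strand, occurs in 6 of the 13 motifs, all in Ddit4, and in 1179 of the 5538 (21.3%). Of 2735 gene symbols 14 have more sites than Ddit4, and 1427 have 1 site, as Akt1s1 does. The motifs of sites 2118 and 2127 end 23 and 32 bases upstream of the RefSeq start of Ddit4, within the promoter window of the RefSeq table.

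Coverage outside ribosomal and mitochondrial RNA ran from 87479 to 831346 reads in the K+ libraries of cells and from 94677 to 1536568 in the Li+ libraries, and 9 ribosomal and mitochondrial sites took 63.5% to 83.8% of all reads. Reads are given as RPM, the reads at a site scaled to the library's total outside these 9 sites. The labelled cell types were checked on marker genes by reads over the most-read site of each gene. The pluripotency genes Pou5f1, Sox2 and Esrrb fell from day 0 to day 7 and from day 3 to day 7, 3 of the 5 listed of 10 in both comparisons (limma-voom, Benjamini-Hochberg adjusted p from 0.00481 to 0.0451 and from 0.00599 to 0.00966). Lin28a went the other way, with log2 differences of 0.80 and 0.61, and Tdgf1 was lower by -1.05 and -0.95. Neither of these genes was called. The day 7 against day 0 call of Sox2 was lost under 8 of 11 alternatives (adjusted p of at most 0.252). Those of Pou5f1 and Esrrb were lost without day 0 replicate 2, and that of Esrrb also without day 7 replicate 1. The 3 calls against day 3 were lost without day 3 replicate 2. That of Esrrb against day 3 was also lost without day 3 replicate 1 and without day 7 replicate 1. Of 12 differentiation markers 7 were listed, of which 6 rose from day 0 to day 7 and 7 from day 3 to day 7. All 7 calls against day 3 were lost without day 3 replicate 2, and that of Fgf8 also without day 3 replicate 1. Both calls of T were lost without day 7 replicate 1. Nanog, Zfp42 and Klf4 are among the pluripotency markers with no listed site. Of 7 feeder markers 1 was listed, Col1a1, at 0 on days 0 and 3 and at 32.1 and 37.0 RPM on day 7. Pluripotency markers summed to 4981 to 5407 RPM on day 0, 5819 to 6366 on day 3 and 2043 to 2530 on day 7, and differentiation markers to 47.3 to 56.5, 599 to 765 and 7131 to 12842. Most of the latter sums was H19, with 716 and 482 RPM on day 3 and 10837 and 4885 on day 7. T, Krt8, Krt18, Sox11 and Nes were listed at 0 in both day 3 samples. The part of these cell types in the changes of Ddit4 and Akt1s1 was not tested, and in bulk RNA fewer cells of a type and less RNA per cell cannot be told apart.

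Reads over Ddit4 were lowest on day 0. At site 148 the K+ libraries held 225 and 836 RPM on day 0, 2458 and 2942 on day 3, then 1683 and 2667 on day 7. The Li+ libraries of the same samples held 411 and 651, then 2359 and 2788, then 1522 and 2637. Every day 3 and day 7 library lay above both day 0 libraries in either cation, and days 3 and 7 overlapped. The mean K+ level on day 3 was 5.09 times and on day 7 4.10 times that of day 0, and the Li+ ratios were 4.85 and 3.92. In the fit over 2389 genes the log2 difference of reads was 2.29 ± 0.46 (SE) for day 7 against day 0, 2.53 ± 0.47 for day 3 against day 0 and -0.25 ± 0.44 for day 7 against day 3 (0.02 with total counts). The medians over all genes were 0.57, 0.16 and 0.33, and the Ddit4 differences exceeded those of 64.5%, 86.5% and 25.6% of the genes. The day 0 samples differed from each other, and without day 0 replicate 1 the first difference was 1.50 and the second 1.75, where without day 0 replicate 2 they were 2.93 and 3.17.

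The higher level extended along the transcript. In K+ both day 3 samples lay above both day 0 samples at 12 of the 12 Ddit4 sites, against 17.3% of all sites with reads, and both day 7 samples did at 11, all but site 156, against 37.7%. In Li+ the counts were 12 and 12, against 14.8% and 33.9%. The sites share reads within a segment and transcripts across segments, and these days were used to choose the gene, so the counts describe 1 transcript. The 2 sites upstream of the RefSeq start together had 27 and 0 K+ reads in the day 0 samples, 32 and 109 in those of day 3, and 434 and 250 in those of day 7. Scaled to depth these were 56.3 and 0 RPM, 366 and 582, and 522 and 567, so that days 3 and 7 overlapped. A listed 0 stands for at most 5 reads.

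Reads over Akt1s1 went the other way. In K+ the libraries held 311 and 348 RPM on day 0, 240 and 149 on day 3, then 150.4 and 170 on day 7. The Li+ libraries gave 354 and 329, then 309 and 243, then 110 and 181. Both day 3 and both day 7 samples lay below both day 0 samples in each cation, as did 11.3% and 15.4% of all sites in K+ and 11.1% and 14.8% in Li+ for day 3 and day 7. In K+ days 3 and 7 overlapped, and in Li+ they did not, where the share of all sites without overlap was not counted. The mean ratio of day 7 to day 0 was 0.487 in K+ and 0.426 in Li+. The log2 difference from the fit was -1.10 ± 0.32 (SE) for day 7 against day 0 and -0.45 ± 0.35 for day 3 against day 0, while the median over all genes was 0.57 and 0.16. With total counts in place of the scaled libraries the day 7 difference was -0.63, with a median over all genes of 1.01.

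**Figure D1:**
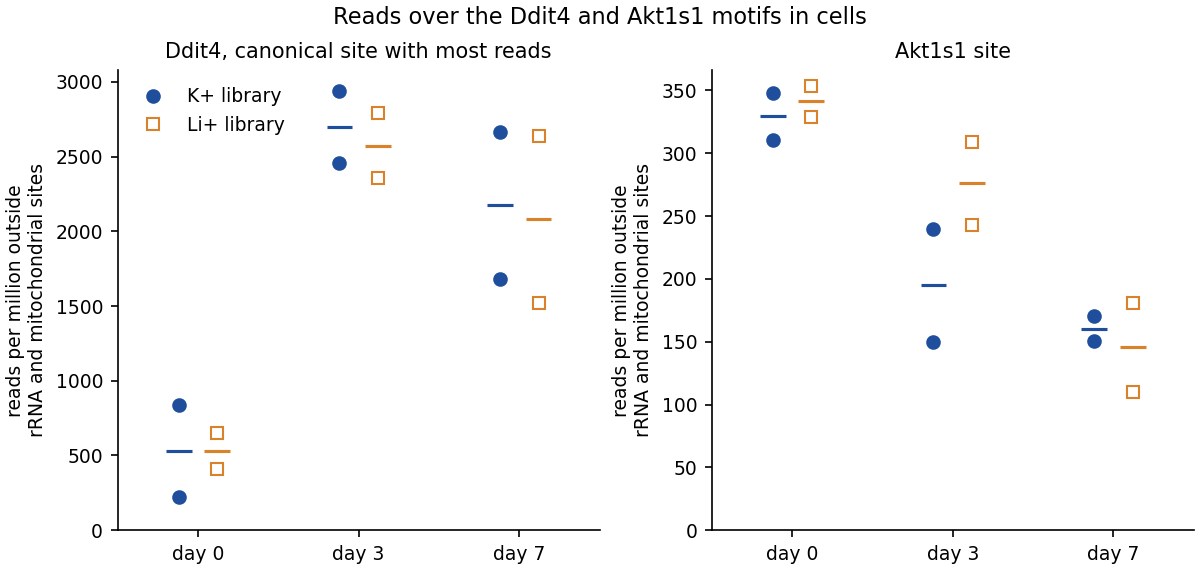
Reads in RPM, outside ribosomal and mitochondrial sites (vertical axis, linear from 0) on days 0, 3 and 7 at Ddit4 site 148 (left) and at the Akt1s1 site (right). Filled circles are K+ libraries, open squares Li+ libraries of the same samples and bars their means (n = 2): for Ddit4 all day 3 and day 7 libraries lie above day 0, and for Akt1s1 all lie below it.

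K+ stops at Ddit4 were also lowest on day 0. At site 148 they were 15 and 4 on day 0, 39 and 70 on day 3, then 192 and 88 on day 7. Scaled in the same way to the library's stops they were 701 and 527, then 4635 and 7631, then 3954 and 4569. Day 0 lay below both later days. Days 3 and 7 were only narrowly apart (4635 against 4569), with a fitted difference of -0.44 ± 0.41 (log2, SE). The share of all sites with such separations in K+ stops was not counted. In the K+ stop fit site 148 differed by 2.32 ± 0.51 (log2, SE) on day 7 and by 2.76 ± 0.49 on day 3 from day 0, where its reads differed by 2.29 and 2.53. Over the 13 alternatives run these values ran from 1.87 to 3.29 and from 2.26 to 3.67. Of the 12 Ddit4 sites 6 had enough stops to be tested, sites 144, 148, 156, 260, 442 and 831, and the Akt1s1 site did not.

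The 6 values were above 0 in both comparisons with day 0, with a median of 2.24 for day 7 and 2.77 for day 3, where the medians of all 327 sites were 0.16 and 0.11. Of all sites 16.2% were past an adjusted p of 0.05 for day 7 against day 0 (limma-voom, 33 higher and 20 lower, or 89 and 4 with total counts), 0.612% for day 3 against day 0 and 6.42% for day 7 against day 3. From day 3 to day 7 the 6 values ran from -2.16 to 0.64. The lowest value belonged to site 260, which had 11 and 11 K+ stops in 115 and 253 reads on day 3, and 17 and 3 in 1032 and 467 reads on day 7.

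The stop share sets the stops against the reads of the same library. At Ddit4 site 148 the K+ share was 13.9% (exact 95% interval 7.99% to 21.9%) and 3.33% (0.916% to 8.31%) on day 0, 18.1% (13.2% to 24.0%) and 12.7% (10.0% to 15.8%) on day 3, and 13.7% (11.96% to 15.6%) and 7.49% (6.05% to 9.15%) on day 7. The Li+ share was 4.07% and 16.2%, then 3.8% and 2.27%, then 7.01% and 4.65%. K+ was above Li+ in both samples of days 3 and 7, by 4.77 and 5.59 times and by 1.96 and 1.61 times. On day 0 replicate 1 had 3.42 times as large a share in K+ and replicate 2 a share 0.206 times that in Li+. The intervals treat all listed reads as independent, but reads at neighbouring stop bases of a site are counted at each. They may therefore be too narrow even for counting error, and they cover no other spread.

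In the fit over 847 sites the K+ against Li+ log2 odds at site 148 were -0.22 ± 0.78 (SE) on day 0, 2.41 ± 0.72 on day 3 and 0.89 ± 0.55 on day 7. The values of days 3 and 7 were higher in K+ in 2 of 2 samples each and ran from 2.36 to 2.54 and from 0.72 to 1.08 over the alternatives. The medians of all sites on these days were 0.69 and 0.22. How many of all sites were higher in K+ in both samples was not counted. The day 0 value came from samples on opposite sides, 1.84 and -2.35 when each was fitted without the other. Over all sites none passed on any day (0% of 847 by limma), with 26, 91 and 36 sites at an unadjusted p under 0.05 on days 0, 3 and 7. With 2 samples a day the data do not show whether site 148 was alike in both cations.

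Site 156, which overlaps site 148 by 15 bases on its 5′ side, had stops in both cations. Its K+ share was 12.2% and 12.8% in the day 0 samples, 21.7% and 8.48% in those of day 3 and 27.6% and 17.9% in those of day 7, and its Li+ share was 17.5% and 2.22%, 16.7% and 7.89%, and 25.0% and 19.3%. On day 7 it had the highest mean K+ share of the 13 sites, 22.7% ± 6.92 (SD, n = 2), above that of 99.0% of 3497 sites. Its K+ against Li+ difference there was -0.03 ± 0.40 (log2, SE), an SE that allows differences of either sign. Site 144, on the 3′ side, had a K+ share of 4.02% and 4.45% on day 7 against 1.60% and 3.40% in Li+. On day 0 it had 10.0% and 3.57% against 6.67% and 6.06%, and on day 3 11.5% and 1.99% against 2.59% and 2.90%.

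In the other Ddit4 segments the replicates of a day often lay far apart. Site 260 had K+ shares of 5.71% and 0% on day 0, 9.57% and 4.35% on day 3, then 1.65% and 0.642% on day 7, and Li+ shares of 4.88% and 1.41%, 2.48% and 0%, and 1.08% and 1.68%. Site 270 had K+ shares of 1.64% and 0%, 8.00% and 1.26%, and 1.37% and 0.627% on these days, and Li+ shares of 2.78% and 6.06%, 1.99% and 1.27%, and 0.769% and 1.82%. On day 3 site 260 differed between cations by 2.29 ± 0.92 (log2, SE). Sites 433, 436, 442 and 452 had K+ shares from 0% to 7.14% on day 0, from 0% to 11.6% on day 3 and from 2.74% to 8.45% on day 7, with Li+ shares from 0% to 13.0%, from 0% to 3.59% and from 1.68% to 6.61%. In day 0 replicate 1 site 831 was higher in Li+, with 1 stop in 38 K+ reads (2.63%) against 12 in 43 Li+ reads (27.9%), and in replicate 2 it had 0 stops in 18 and 14 reads. It had 14.6% and 4.44% in K+ on day 3 against 4.47% and 5.62% in Li+, and 6.63% and 7.31% on day 7 against 3.76% and 9.81%. Upstream of the RefSeq start, sites 2118 and 2127 had 8.13% and 6.19% and 7.56% and 4.38% in K+ on day 7, where Li+ gave 1.42% and 3.57% and 4.26% and 2.48%. On day 3 they had 6 and 0 K+ stops in 26 and 42 reads and 2 and 1 in 6 and 67, and Li+ gave 2 and 0 in 55 and 27 and 3 and 1 in 43 and 44. In day 0 replicate 1 site 2118 had 0 stops in 9 K+ reads and 6 in 14 Li+ reads and site 2127 had 2 in 18 K+ reads and no listed Li+ reads, and in replicate 2 both were listed at 0 reads.

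Counted by sample over the 12 Ddit4 sites, K+ exceeded Li+ at 4 of 11 and 1 of 10 sites with reads on day 0, 11 and 7 of 12 on day 3, and 12 and 6 of 12 on day 7. These counts have no read minimum, unlike the shares of all sites that follow. Over all sites with 20 or more reads in both cations the share with K+ above Li+ was 41.4% and 29.1% on day 0, 73.2% and 58.8% on day 3, then 66.0% and 41.8% on day 7. Over the 7 Ddit4 sites in the fit the median difference was -0.22 on day 0, 0.61 on day 3 and 0.18 on day 7, where the medians of all sites were -0.31, 0.69 and 0.22. The part of the library-wide shift in the values of single sites was not tested.

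The Akt1s1 site had few stops in cells. On day 0 the K+ libraries gave 2 stops in 149 reads (1.34%, interval 0.163% to 4.76%) and 0 in 50 (up to 7.11%), on day 3 8 in 21 (38.1%, 18.1% to 61.6%) and 3 in 28 (10.7%, 2.27% to 28.2%), and on day 7 13 in 125 (10.4%, 5.65% to 17.1%) and 3 in 75 (4.00%, 0.833% to 11.2%). The Li+ shares were 0.943% and 6%, then 1.53% and 0%, then 6.51% and 3.23%. Both day 3 K+ shares were above both day 0 shares and above Li+, and the lower day 3 share lay next to the higher day 7 share. The share of all sites with such separations was not counted. Over all sites past the read minimum, the median K+ share was 5.45% and 2.86% in the day 3 samples. In the day 0 samples it was 2.5% and 1.97%. K+ exceeded Li+ at 73.2% and 58.8% of these sites on day 3. At the Akt1s1 site the K+ against Li+ log2 odds were -0.88 ± 1.45 (SE) on day 0, 3.76 ± 1.28 on day 3 and 0.46 ± 0.71 on day 7. The day 3 value, higher in K+ in 2 of 2 samples, exceeded that of 99.6% of the sites and rests on 21 and 28 K+ reads. Over the alternatives it ran from 2.69 to 5.03.

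**Figure D2:**
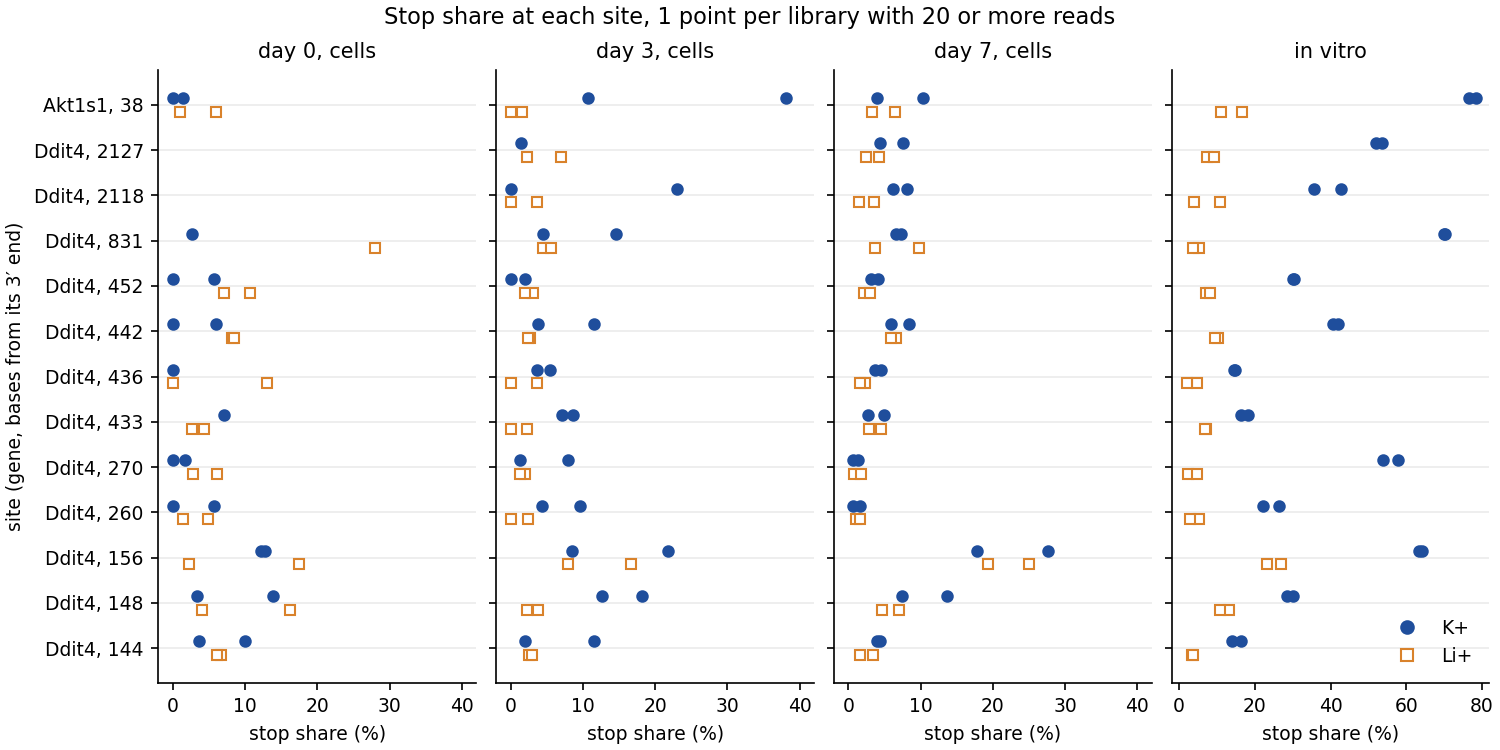
Stop share in percent (horizontal axes, wider for the in vitro panel) at the 13 sites (rows, by gene and bases from its 3′ end) on days 0, 3 and 7 in cells and in vitro. Each filled circle is a K+ library and each open square a Li+ library with 20 or more reads: in vitro all K+ points lie right of their Li+ points, and in cells the highest point is the Akt1s1 K+ value of 38.1% on day 3.

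**Figure D3:**
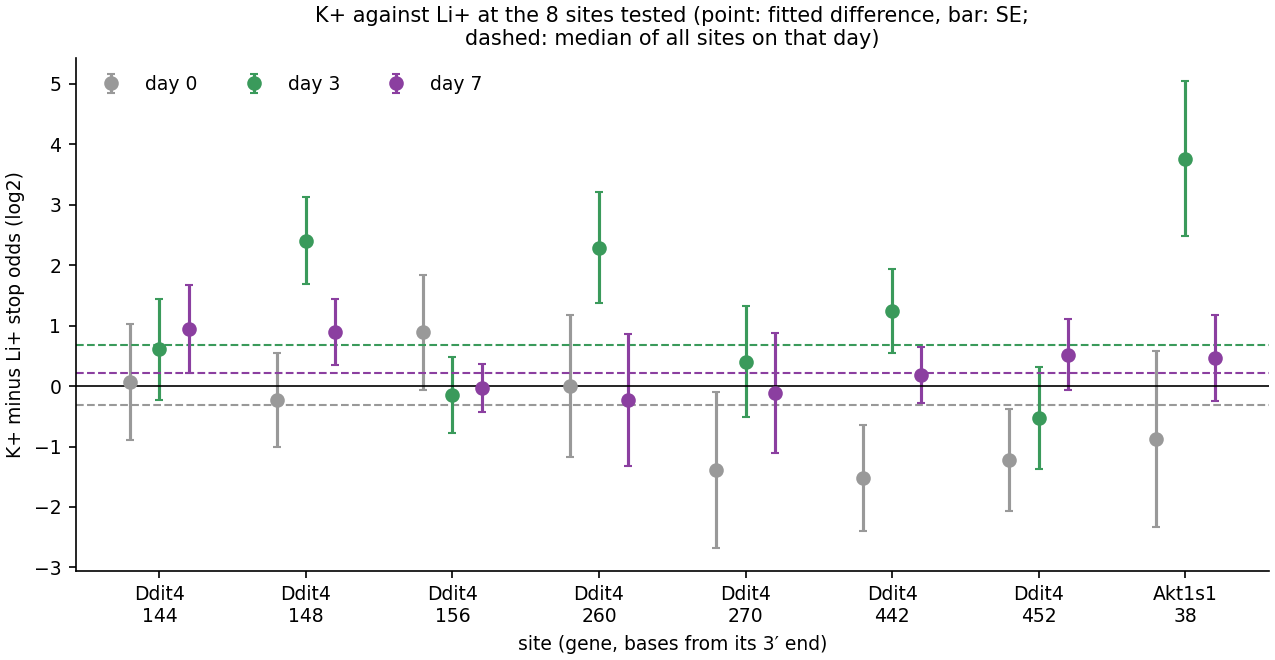
K+ minus Li+ stop odds (log2, vertical axis) at the 7 Ddit4 sites and the Akt1s1 site with 20 or more reads in every in-cell library, for days 0, 3 and 7, with points for fitted differences, bars for their SE and dashed lines for the median of 847 sites on each day. The day 3 values of Ddit4 sites 148 (2.41) and 260 (2.29) and of Akt1s1 (3.76) are the highest shown.

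The in vitro tables were compared with the day 7 cells to ask how much of the stopping seen outside the cell remained inside it. In vitro the Akt1s1 site had the highest K+ share of the 13, 76.5% and 78.5%, against 16.5% and 11.1% in Li+. Ddit4 site 831 followed with 69.9% and 70.2% against 5.14% and 3.797%. Site 156 had 63.3% and 64.3%, site 270 had 53.8% and 57.8% and site 2127 had 53.6% and 52.1%. Site 148 had 28.4% and 30.2%, below the all-site median of 45.1%, and the lowest was site 436 with 14.6% and 14.4%. The coverage of site 148 sums over 5 stop bases and that of site 436 is from 1, so these shares are not on one scale. The SD between the in vitro replicates was 0.147 to 5.06 percentage points over the 13 sites.

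In day 7 cells the order was another one. Site 148 kept 36.2% of its in vitro K+ share (10.6% ± 4.41 against 29.3% ± 1.25, SD, n = 2) and site 156 35.7%, where the median over 3497 sites was 8.91%. These ratios use K+ shares without subtracting Li+ stops. In vitro the Li+ shares were 13.3% and 10.7% at site 148 and 23.1% and 26.8% at site 156. On day 7 they were 7.01% and 4.65% at site 148 and 25.0% and 19.3% at site 156. The Akt1s1 site kept 9.29% (7.20% ± 4.53 against 77.5% ± 1.38) and site 831 kept 9.94%. Site 270 kept 1.78%, with 0.996% ± 0.522 in cells against 55.8% ± 2.82, and its share in cells exceeded that of 8.21% of the sites. Its neighbour site 260, which shares 15 of its bases, kept 4.72%. Of the 4 highest in vitro Ddit4 levels, only that of site 156 was also among the 3 highest of the 13 in cells, where its Li+ shares were 25.0% and 19.3%.

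All 13 sites had higher log2 odds of stopping in vitro than in day 7 cells and passed the test, as did 99.5% of all sites, which is no result about these genes, since nearly every site passed. Sites were listed for a stop excess in vitro, so this direction was favoured before the test and no p is given for single members. The differences ran from 1.86 ± 0.32 (log2, SE) at site 148 to 6.84 ± 0.77 at site 270 in Ddit4, with a median of 3.09 over its 12 sites, and 9 of the 12 lay below the all-site median of 4.30. The value of site 148 exceeded that of 2.20% of the sites. The Akt1s1 difference was 5.39 ± 0.49, above that of 78.4% of the sites. The members were chosen with results on these samples known.

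**Figure D4:**
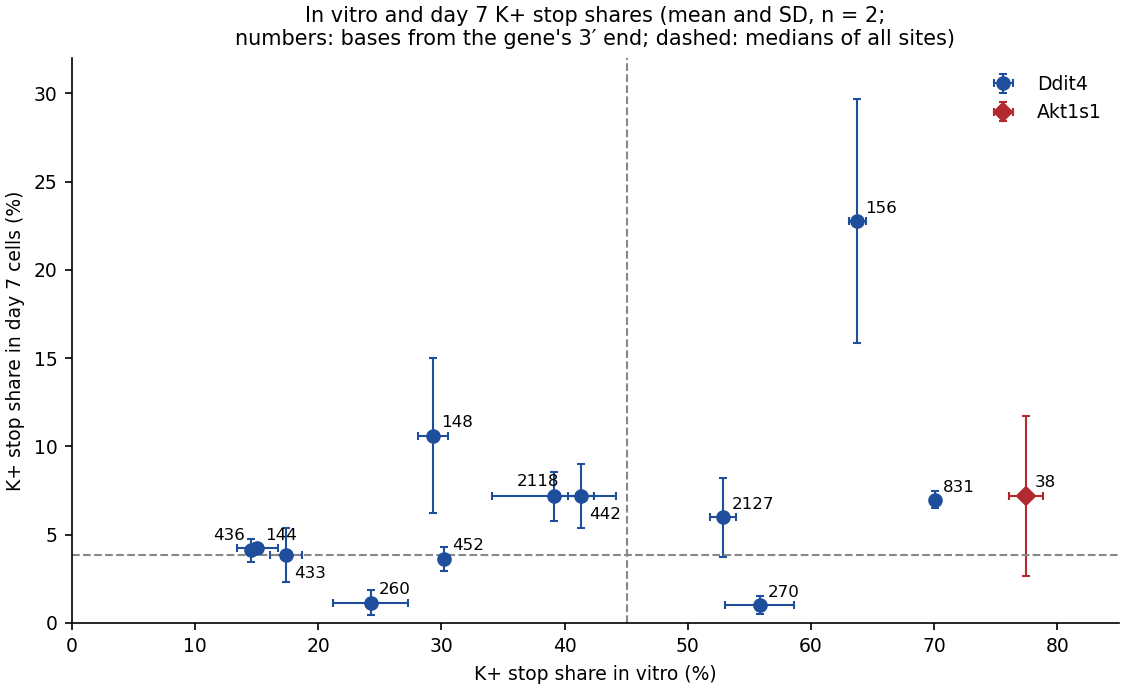
K+ stop share in vitro (horizontal axis, percent) and in day 7 cells (vertical axis, percent) of the 12 Ddit4 sites and the Akt1s1 site, as means with SD (n = 2), labelled with the bases to the gene's 3′ end. Dashed lines are the medians of 3497 sites, 45.1% and 3.83%: site 156 is highest in cells at 22.7%, and sites 831 and 38 lead in vitro.

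In the segment nearest the 3′ end the K+ coverage per stop base was highest at site 144, next at site 148 and lowest at site 156 in all 8 tables. In the K+ library of day 7 replicate 1 it was 448 reads at site 144, 280 per base over the 5 stop bases of site 148 and 123 per base at site 156. In the first in vitro table it was 1270, 645 and 98. Listed coverage sums over stop bases, and across all sites the median K+ coverage of day 7 replicate 1 was 37 with 1 stop base, 77 with 2 and 298 with 5, so reads are compared between sites only per stop base.

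Other genes of the pathway were taken from lists, on which Ddit4 and Akt1s1 are left out of the counts. Of 11 genes of the mTORC1 complex and its inhibitors 3 were listed, and beside Ddit4 and Akt1s1 this was Fkbp1a, which encodes the protein that binds rapamycin. It had 1025 and 426 RPM on day 0 and 893 and 846 on day 7, a difference of 0.44 ± 0.40 (log2, SE; limma-voom adjusted p = 0.447). Over all genes 18.4% were called for day 7 against day 0, 0.0837% for day 3 against day 0 and 12.6% for day 7 against day 3, the first with 364 higher and 75 lower (429 and 17 with total counts). The first of these counts, 439 of 2389 genes, fell to 113 without day 7 replicate 1 and rose to 1064 without day 0 replicate 1.

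Upstream of mTORC1, 3 of 14 genes tested rose and 0 fell from day 0 to day 7 (median difference 0.88, all genes 0.57). Irs2, an adaptor of the insulin receptor, was listed at 0 on days 0 and 3 and at 74.7 and 93.2 RPM on day 7 (limma-voom adjusted p = 0.00161, 0.000371 to 0.0100 over the alternatives). Gsk3b, a kinase inhibited by AKT, was listed at 0 on days 0 and 3 and at 25.8 and 15.3 RPM on day 7 (adjusted p = 0.00796), and without day 7 replicate 1 it did not pass (0.274). From day 3 to day 7 Irs2 (adjusted p = 0.00337) and Gsk3b (0.0111) rose, and neither passed without day 3 replicate 2 (0.0627 and 0.0812). Without day 7 replicate 1 Gsk3b did not pass there either (0.416).

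Of 6 genes tested in the amino acid branch, which brings mTORC1 to the lysosome, 1 fell and 0 rose from day 0 to day 7 (median difference -0.87). It was Lamtor2, a Ragulator subunit, with 1488 and 2161 RPM on day 0 and 540 and 790 on day 7 (-1.36 ± 0.32, log2, SE; adjusted p = 0.026, 0.00482 to 0.143). It missed the threshold under 5 of 11 alternatives: total counts (0.0763), and leaving out day 0 replicate 2 (0.127), either day 3 sample (0.0521 and 0.0644) or day 7 replicate 1 (0.143). Of 9 genes downstream of mTORC1, 1 fell and 0 rose (median -0.14). This was Atg13, a subunit of the kinase complex that starts autophagy, which had 314 and 169 RPM in the day 0 samples and 62.50 and 62.55 in the day 7 samples (-1.88 ± 0.38, adjusted p = 0.0136, 0.00955 to 0.105), which did not pass with total counts (0.0881) or without day 7 replicate 1 (0.105). In both lists no gene passed for day 3 against day 0 or day 7 against day 3.

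Of 6 K+ stop sites tested in downstream genes 1 fell, in the translation factor gene Eif4g1, from 43 and 9 stops on day 0 to 30 and 11 on day 7 (-1.87 ± 0.48, log2, SE; limma-voom adjusted p = 0.0271, 0.0187 to 0.391). It missed the threshold under 6 of 13 alternatives: leaving out either day 0 sample (0.176 and 0.113) or day 7 replicate 1 (0.0976), total counts (0.391), no filter (0.267), and K+ exchanged with Li+ in day 0 replicate 2 (0.242). Of 8 stress genes known to be induced together with Ddit4, 1 rose from day 0 to day 7 (median 1.14) and 1 from day 3 to day 7, in both cases Jun, an immediate early transcription factor. Its reads were listed at 0 in both day 0 samples, and were 139 and 0 RPM in the day 3 samples and 581 and 775 in the day 7 samples (adjusted p = 0.00153 against day 0 and 0.0409 against day 3). The second call was lost when day 0 replicate 2 (0.0698), day 3 replicate 2 (0.0805) or either day 7 sample (0.201 and 0.147) was left out. Its K+ stops went from 0 and 0 on days 0 and 3 to 58 and 17 on day 7 (adjusted p = 0.00208 and 0.00466). No other stress gene passed on either measure.

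By the pattern of scaled K+ stops over the 6 in-cell samples, the 5 genes most like Ddit4 site 148 among 327 sites were Wnk1 (Pearson's r = 0.97), Igfbp2 (0.94), Malat1 (0.93), Psap (0.93) and Dhx9 (0.88). These values describe 6 points that share libraries and depth, with no test. Wnk1 had 2 and 0 stops in the day 0 samples, 11 and 12 in those of day 3, and 28 and 12 in those of day 7. No such list was made for Akt1s1, whose stops were too few for that filter.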

How the data were processed

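The deposited tables, 1 per sample and preparation (8 in all), list coverage and stops per site, in K+ and in Li+, as whole-number read counts without normalisation, per the file headers. The tools were cutadapt, STAR and SAMtools and the builds GRCm38.p6 and mm10, per the submitters' processing notes. How multiply mapped reads and strand were treated is not stated in the sources used here. No coverage from 1 to 5 is listed, so 0 means 5 reads or fewer. The 2 sites without a value in day 0 replicate 1 were taken as 0.

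K+ stops per site, and reads of both cations at the most-read site of each gene, were tested between days in limma-voom (version 3.58.1 of limma under R 4.3.3) on all 6 in-cell samples with trimmed-mean scaling. To enter, a feature needed 15 counts in all and, in 2 or more libraries, the equivalent of 10 counts in a library of median size. Stop shares were tested as log2 odds with a pseudocount of 0.5, with weights from a beta-binomial model, where every library compared had 20 reads or more. A call is an adjusted p (Benjamini-Hochberg, over all features) under 0.05. Because a record of these tables is split over 2 lines, the columns could not be declared as counts for the unit check, and the quasi-likelihood count test named in the plan was not run. The fits were tested on simulated data. Intervals are exact for independent reads (Clopper-Pearson, 95%).

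The members and gene lists were chosen with earlier results of these data known. Every site of both genes is given. Of the lists, the genes past a test are named, or otherwise the 3 with the most reads, and 1 gene and 3 motif sequences are not reported here. No label says that replicates are separate cultures, and p-values then measure only the spread of these samples, which may be technical. The K+ and Li+ libraries of a sample, and the in vitro and cell tables of a replicate number, come from the same GEO sample, and a replicate block changed no call of a member there. The main fits did not treat same-numbered samples of different days as pairs.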

Additional observations from a re-analysis of the deposited data

Results flagged for a closer look

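At 2 overlapping Ddit4 sites both samples of one day lay on one side of Li+ and both samples of another day on the other side. The share of all sites meeting this rule was not counted, so whether these 2 sites stand out was not tested. At site 442 (chr10:59950117-59950147) the K+ minus Li+ log2 odds were -0.41 and -3.10 on day 0 and 2.24 and 0.61 on day 3, a difference of 3.18 between the day means of -1.76 and 1.42. At site 452 (chr10:59950127-59950147) they were -0.34 and -2.49 on day 0 and 0.93 and 0.06 on day 7, a difference of 1.91 between the means of -1.42 and 0.50. On day 3 both samples of site 452 were below 0 as well (-1.22 and -0.08), and on day 7 site 442 had 0.39 and a value just under 0. These differences were not tested, since the days served to choose the gene. The fitted changes, weighted by coverage, were 2.77 ± 1.12 and 1.74 ± 1.03 (log2, SE). The median over all sites of day 0 was also below 0 in both samples (-0.28 and -0.49), above 0 in both day 3 samples (1.33 and 0.25) and on both sides on day 7 (0.57 and -0.22). The K+ stops behind them are few, 4 and 0 at site 442 and 2 and 0 at site 452 on day 0.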

How the results depend on the processing

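The 53 sites called for K+ stops on day 7 against day 0 became 93 with total counts (median log2 change 1.26 in place of 0.16, 89 up and 4 down in place of 33 and 20) and 154 with no filter, and 21 to 69 with 1 sample left out. The 2 called for day 3 became 0 under median-ratio scaling (limma-voom, with 48 at an unadjusted p under 0.05), 43 with total counts, 14 with no filter, 1 with K+ and Li+ of day 0 replicate 2 exchanged and 0 to 3 with 1 sample left out. The 21 of day 7 against day 3 became 134 with no filter and 14 to 22 with 1 sample left out. For reads, leaving out 1 sample gave 113 to 1064 genes in place of 439, 0 to 331 in place of 2 and 0 to 585 in place of 302, the 0 of the last without day 3 replicate 2. With total counts the 439 calls became 446, of which 429 were up and 17 down.

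The number of K+ against Li+ calls on day 7 went from 0 to 1 with a pseudocount of 1 and with the exchanged columns, and on days 0 and 3 it was 0 under every alternative run. The in vitro calls went from 3478 of 3497 to 1905 of 1916 with a coverage minimum of 50, where fewer sites were tested. All 13 members passed in vitro under each alternative run. Leaving out 1 day 0 sample moved the day 0 K+ against Li+ value of -0.22 at Ddit4 site 148 to between -2.35 and 1.84, and that of -0.88 at Akt1s1 to between -2.90 and 0.25, the upper values without replicate 2. With the columns of replicate 2 exchanged they were 2.09 and 1.15. The cause was not tested. The day 7 against day 3 differences of Ddit4 site 148 also crossed 0, from -0.44 to 0.02 for K+ stops with no filter and from -0.25 to 0.02 for reads with total counts.

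Same-numbered samples of different days did not deviate together in every pair of days (K+ stops, r of 0.01, -0.17 and 0.09; reads, 0.25, -0.06 and 0.03). With the replicate number as a block the K+ stop calls were 56, 0 and 20 for day 7 against day 0, day 3 against day 0 and day 7 against day 3, the calls on reads 290, 0 and 258, the K+ against Li+ calls 0 on each day and the in vitro calls 3484. A crossed pairing chosen after seeing the data, with day 7 numbers exchanged, gave 52, 4 and 21 K+ stop calls. The planned quasi-likelihood count test was not run.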
